A study of Arabidopsis thaliana with 16 samples.

Results

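NAC genes of Arabidopsis thaliana were followed in peak lists of H3K27me3 and H3K4me3 from guard cells of 2 genotypes. The set was every protein-coding gene on chromosomes 1 to 5 whose annotation symbol is NAC or ANAC and a number. It held 81 of 27444 genes, and the rule used no measured value. FAMA-LGK plants were fama-1 mutants that carry FAMA-LGK driven by the FAMA promoter, and WT plants were wild type. FAMA is the bHLH factor of guard cell differentiation, and its LGK form has an altered motif for binding the retinoblastoma-related protein. The number of independent FAMA-LGK lines is not given in the sources used here. Guard cells of both genotypes were sorted by fluorescence from protoplasts of aerial tissue at 12 days post germination. Of the 16 libraries, 8 were ChIP and 8 input, with 2 of each kind per mark and genotype, and the deposited data used here were 1 peak list per mark and genotype.

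NAC proteins are plant transcription factors named after NAM, ATAF and CUC. They share an N-terminal domain that binds DNA and forms dimers, and differ in their C-terminal parts, some of which end in a membrane anchor. Members switch on xylem and fibre cell walls, pattern the root cap and phloem, set organ boundaries, time leaf senescence and answer stress and abscisic acid (ABA). H3K27me3 is laid down by Polycomb complexes over silent genes, and H3K4me3 lies near the starts of transcribed genes.

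The lists held 7652 (FAMA-LGK) and 7386 (WT) H3K27me3 peaks and 15989 (FAMA-LGK) and 16036 (WT) H3K4me3 peaks. They give no read counts, so the depth is unknown. Each list stands for its libraries together, so no replicate error can be given and no difference between genotypes was tested. In sorted pools, fewer cells with a mark and less of it per cell cannot be told apart. A gene was called for a mark if peaks covered at least 150 bp of its body. Covered length is the number of bp under peaks from 500 bp before the gene to 500 bp after it. Peaks that run further are cut there, so covered length does not give the width of a wide domain. The fold of a gene is the authors' enrichment over control at its strongest peak. Of 6 guard cell marker genes matched in the annotation, 5 were called for H3K4me3 in FAMA-LGK and 6 in WT, and 1 (TGG1) for H3K27me3 in FAMA-LGK and 0 in WT. All 6 had less of the gene body under H3K4me3 in FAMA-LGK (0 to 2319 bp) than in WT (1384 to 3154 bp). All 3 mesophyll markers were called for H3K4me3 in both genotypes, over 1230 to 1460 bp in FAMA-LGK and 1230 to 1408 bp in WT. The part of these marker differences in the results on NAC genes was not tested. The 4 meristem and floral markers were called for H3K27me3 and not for H3K4me3 in both genotypes.

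The H3K27me3 share among NAC genes was higher, and the H3K4me3 share lower, than among all genes in both genotypes. H3K27me3 was called at 41 NAC genes in FAMA-LGK (50.6%) and 42 in WT (51.9%), where 24.4% of all genes were called in each list. H3K4me3 was called at 30 in FAMA-LGK (37.0%) and 31 in WT (38.3%), where 62.2% of all genes were called in each list. Both genotypes shared 40 H3K27me3 calls (49.4%, against 23.1% of all genes) and 28 H3K4me3 calls (34.6%, against 60.2%). The median gene length was 1921 bp for NAC genes and 2078 bp for all genes. With 50% of the gene body required, the H3K4me3 shares came close to each other, at 21.0% of NAC genes and 25.2% of all genes in FAMA-LGK and 18.5% and 24.3% in WT.

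Most NAC genes carried 1 mark, and few carried both. H3K27me3 without H3K4me3 was found at 34 members in FAMA-LGK and 34 in WT (42.0% each), against 19.9% and 19.5% of all genes. H3K4me3 without H3K27me3 was found at 23 in each genotype (28.4%), against 57.7% of all genes in FAMA-LGK and 57.3% in WT. Both marks were called at 7 members in FAMA-LGK (8.64%) and 8 in WT (9.88%), against 4.51% and 4.97% of all genes. Neither mark was called at 17 in FAMA-LGK (21.0%) and 16 in WT (19.8%), close to the 17.9% and 18.3% of all genes. In all, 73 members had the same state in both genotypes. They were 31 with H3K27me3 alone, 22 with H3K4me3 alone, 5 with both marks and 15 with neither. Of all genes, 18.2%, 55.7%, 3.43% and 16.3% had these states in both genotypes, and 6.44% changed state.

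**Figure D1:**
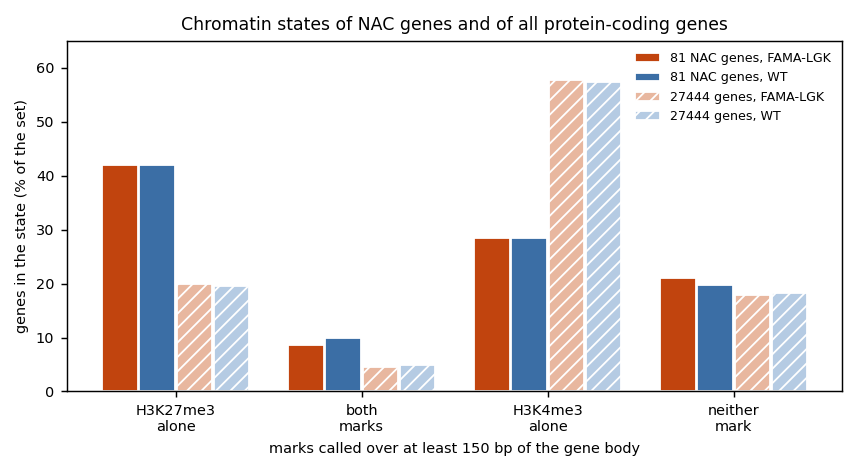
Share of genes in each chromatin state (y axis, % of the set) for the 81 NAC genes (solid bars) and all 27444 protein-coding genes (hatched bars), FAMA-LGK left of WT. The NAC bars are at 42.0% for H3K27me3 alone and 28.4% for H3K4me3 alone, where all genes stand at 19.9% and 57.7% in FAMA-LGK; a bar has no replicate error because each list is 1 set of peaks.

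H3K27me3 over called NAC genes was broad, as over all called genes, with a median fold above that of all called genes. Among called genes, the median share of the gene body under H3K27me3 was 96.0% (FAMA-LGK) and 97.2% (WT) for NAC genes, and 93.5% and 93.9% for all genes. The whole body was covered at 17 members in FAMA-LGK (21.0%) and 16 in WT (19.8%), against 10.1% and 10.2% of all genes. These shares count uncalled genes too, so they move with the share of genes called. Set against called genes alone, it was 17 of 41 members and 2774 of 6704 genes in FAMA-LGK. In WT it was 16 of 42 members and 2813 of 6710 genes. In both genotypes, 13 members were wholly covered, a state that was not counted over all genes. The median fold at called NAC genes was 4.55 in the FAMA-LGK list, against 3.95 at all called genes of that list. In the WT list it was 4.53, against 3.68. For H3K4me3 the order was the reverse, with 4.35 against 4.75 in the FAMA-LGK list and 4.49 against 5.25 in the WT list.

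Some role lists carried mostly 1 mark, and others were mixed. Of 15 xylem and fibre wall regulators, 11 of them members by symbol, 13 were called for H3K27me3 in both genotypes (23.1% of all genes were). VND3 (NAC105), 1 of the VND genes that switch on xylem vessel differentiation, had the highest fold of any NAC gene in both lists, 8.47 in FAMA-LGK and 7.92 in WT. VND2 (NAC076) and VND4 (NAC007) lay wholly under H3K27me3 in both genotypes, with folds of 5.00 and 5.68 in FAMA-LGK and 4.83 and 5.31 in WT. VND5 (ANAC026) was covered over 98.9% of its body in FAMA-LGK and 98.5% in WT. NST3 (NAC012), which promotes wall thickening in fibres, was wholly covered in both genotypes. SND3 (NAC010), a downstream wall regulator, had 100% of its body covered in FAMA-LGK and 91.9% in WT.

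Weaker coverage lay on NST2 (NAC066), known from anther wall thickening, with folds of 2.44 in FAMA-LGK and 2.68 in WT. SND2 (NAC073), another downstream wall regulator, had folds of 4.55 and 4.13. Exceptions in this group were VND6 (NAC101), which had 0 bp of either mark in every list, and VNI2 (NAC083). VNI2, a repressor that binds the VND proteins, had H3K4me3 alone, over 1518 bp in FAMA-LGK against 1469 bp in WT.

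Root cap, phloem, boundary and wound genes were also in the H3K27me3 group. BRN2 (NAC070), which acts in root cap maturation with BRN1, was wholly covered in both genotypes, with folds of 6.06 in FAMA-LGK and 6.08 in WT. BRN1 (NAC015) had 94.1% of its body covered in FAMA-LGK and 97.4% in WT. The phloem genes NAC045 and NAC086, needed for the loss of the nucleus in sieve elements, had folds of 5.08 and 4.16 in FAMA-LGK and 4.64 and 4.67 in WT. NAC020, a gene of early phloem, lay wholly under H3K27me3 in both. All 3 genes of wound and graft repair were called in both genotypes (23.1% of all genes were), at lower folds. NAC071 had 2.32 in FAMA-LGK and 2.02 in WT, NAC096 had 2.20 and 1.71, and NAC011 had 1.95 and 2.47. These folds lay below the median of all called genes in their lists. No gene of the root cap, phloem and wound lists was called for H3K4me3 in either genotype, where 62.2% of all genes were in each. H3K4me3 did lie next to BRN1 and NAC086, with covered lengths of 542 and 501 bp in FAMA-LGK and 596 and 477 bp in WT. Too little of it reached their bodies for a call.

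**Figure D2:**
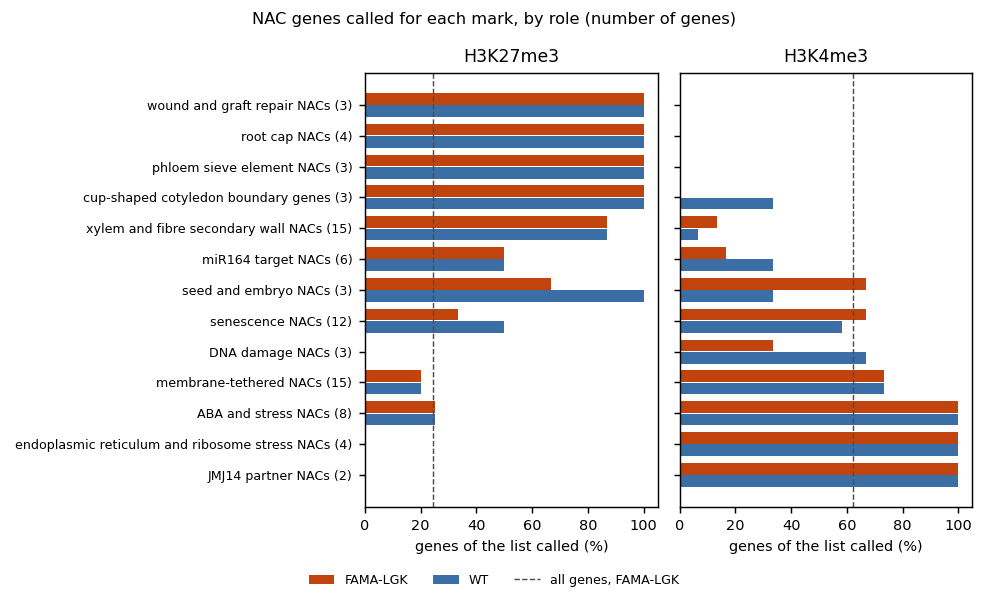
Percent of the matched genes of each role list called for H3K27me3 (left) and H3K4me3 (right), FAMA-LGK bars above WT bars, with the number of genes in brackets; the dashed line is the share of all genes called in FAMA-LGK (24.4% and 62.2%). Lists of root cap, phloem, boundary and wound genes reach 100% for H3K27me3, and those of ABA and stress, endoplasmic reticulum and JMJ14 partner genes reach 100% for H3K4me3; the lists share some genes.

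Of the remaining genes with H3K27me3, NAC074 was covered over its whole 4414 bp body in both genotypes, with folds of 8.16 in FAMA-LGK and 7.27 in WT. NAC067 lay in a wide domain of 16200 bp in FAMA-LGK against 10134 bp in WT. NAC097, NAC006 and NAC099 had folds of 6.65, 6.17 and 5.74 in FAMA-LGK and 6.44, 5.26 and 5.15 in WT. NAC025, which acts in the endosperm at germination, and NAC024, NAC057, NAC058 and NAC028 had folds of 5.10 to 5.48 in FAMA-LGK and 4.74 to 5.46 in WT. NAC061 and NAC038 had 4.11 and 3.99 in FAMA-LGK and 4.08 and 4.32 in WT. NAC060, a gene that limits ABA responses of seedlings, had 3.11 and 3.01. NAC090, a regulator of senescence, had 2.62 in FAMA-LGK and 3.09 in WT. Folds were low at NAC049 (2.18 and 2.16) and NAC023 (1.95 and 2.85).

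**Figure D3:**
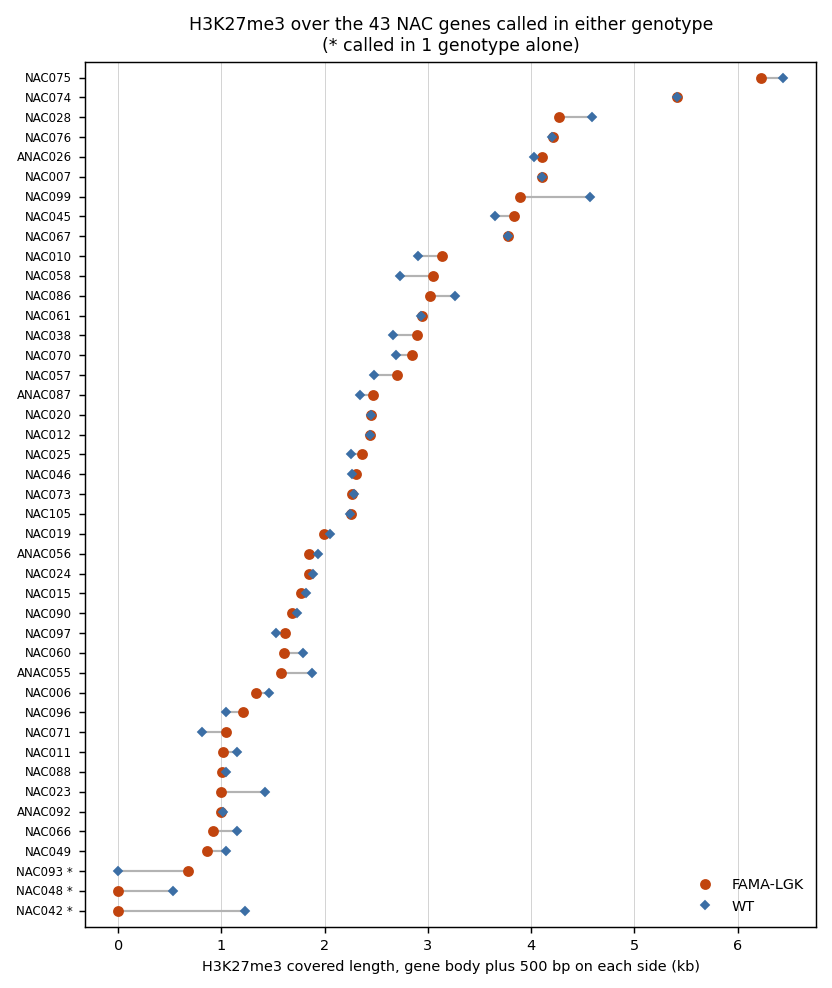
H3K27me3 covered length (x axis, kb) of the 43 NAC genes called in either genotype, with FAMA-LGK as circles and WT as diamonds joined by a line. Of the 40 genes called in both genotypes, 19 differ by at most 100 bp; NAC042, NAC048 and NAC093, marked with a star, have 0 kb in 1 genotype.

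H3K4me3, called at most genes of the genome, was also called at many NAC genes of stress, protein quality and organelle signalling. Of 15 membrane-tethered NAC genes, 12 of them members by symbol, 11 were called in both genotypes, not far from the 60.2% of all genes. Of the other 4, NTL8, NAC060 and NAC086 had H3K27me3 alone in both genotypes, and NAC016 had neither mark. NAC053 and ANAC078 (AT5G04410, listed as NAC2), which act when the proteasome is impaired, had covered lengths of 2198 and 1660 bp in FAMA-LGK and 2206 and 1800 bp in WT. ANAC013 (listed as NAC13) and NAC017 carry signals from mitochondria to the nucleus. They had 1254 and 1639 bp in FAMA-LGK and 1158 and 1717 bp in WT. NAC014, NAC069 and NAC001, anchored members too, had 959, 1169 and 904 bp in FAMA-LGK and 921, 1148 and 874 bp in WT.

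All 4 genes of endoplasmic reticulum and ribosome stress were called for H3K4me3 in both genotypes and none for H3K27me3. Of all genes, 60.2% were called for H3K4me3 and 23.1% for H3K27me3 in both genotypes. NAC062 and NAC089, membrane-anchored factors of the unfolded protein response, had 2003 and 1899 bp in FAMA-LGK and 1847 and 2041 bp in WT. NAC103, of the same response, had 1115 and 1112 bp, at folds of 2.18 in the FAMA-LGK list and 1.71 in the WT list. NAC082, of the ribosome stress response, had 1267 and 1248 bp.

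NAC050 and NAC052 encode partners of the H3K4 demethylase JMJ14. Both were called for H3K4me3 alone in both genotypes, as were 55.7% of all genes. They had 1475 and 1498 bp in FAMA-LGK and 1465 and 1504 bp in WT. All 8 ABA and stress genes, 5 of them members by symbol, were called for H3K4me3 in both genotypes (60.2% of all genes were). NAC102, a gene of the low oxygen response, had the longest coverage of any member, 2224 bp in FAMA-LGK against 2215 bp in WT, and the highest H3K4me3 fold, 6.65 and 7.54. NAC032, a stress gene, had 1290 bp in FAMA-LGK against 1611 bp in WT. NAC047, a gene of leaf movement under flooding and of senescence, had 1472 bp in FAMA-LGK against 942 bp in WT. The other members with H3K4me3 alone in both were NAC003, NAC004, NAC027, NAC041 and NAC077, at 770 to 1409 bp in FAMA-LGK and 1022 to 1325 bp in WT.

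**Figure D4:**
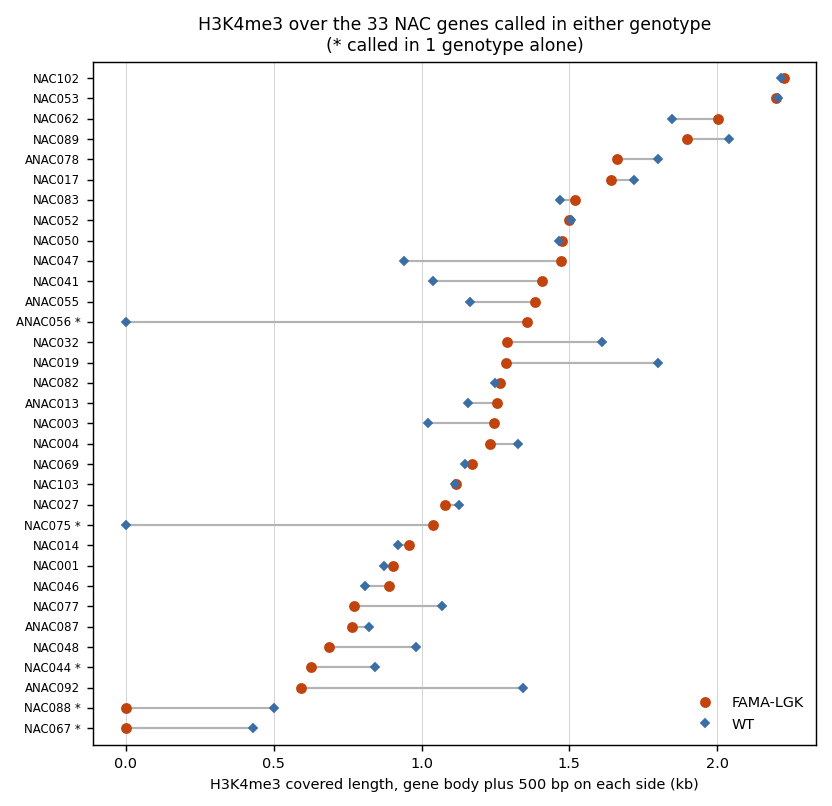
H3K4me3 covered length (x axis, kb) of the 33 NAC genes called in either genotype, with FAMA-LGK as circles and WT as diamonds. ANAC056 and NAC075 stand at 0 kb in WT, and NAC088 and NAC067 at 0 kb in FAMA-LGK; genes called in 1 genotype alone have a star.

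The 5 genes with both marks in both genotypes are known from senescence and ABA and jasmonate responses. They made up 5 of 81 members, where 3.43% of all genes had both marks in both genotypes. NAC019 (AT1G52890) and ANAC055 (AT3G15500, listed as NAC3) act in the stomatal reopening that the bacterial toxin coronatine induces. NAC019 had H3K4me3 over 1285 bp in FAMA-LGK against 1800 bp in WT, and H3K27me3 over 1997 and 2052 bp. ANAC055 had H3K4me3 over 1382 bp in FAMA-LGK against 1165 bp in WT, and H3K27me3 over 1578 and 1873 bp. The marks overlapped on 1194 bp (FAMA-LGK) and 1552 bp (WT) of the NAC019 body and on 1377 and 1165 bp of ANAC055.

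ORE1 (AT5G39610, ANAC092, listed as NAC6), a main activator of leaf senescence, had H3K4me3 over 594 bp in FAMA-LGK against 1342 bp in WT. This was the largest loss of H3K4me3 length among the members. Its H3K4me3 fold was 1.94 in the FAMA-LGK list, at the 3.4 percentile of that list by −log10 q, and 4.01 in the WT list, at the 28.4 percentile. H3K27me3 at ORE1 covered 995 bp in FAMA-LGK against 1016 bp in WT. NAC046 and ANAC087, both linked to senescence and cell death, had H3K4me3 over 890 and 766 bp in FAMA-LGK and 808 and 824 bp in WT. Their H3K27me3 covered 2300 and 2471 bp in FAMA-LGK and 2262 and 2347 bp in WT. Whether both marks lie in the same cells cannot be told from sorted pools. Within the upper 50% of peaks by −log10 q, 0 members had both marks in FAMA-LGK and 1 in WT.

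Calls differed between the genotypes at 8 members, 9.88% of 81, where 6.44% of all genes differed. For H3K27me3, 1 was called in FAMA-LGK alone (1.23%, against 1.37% of all genes) and 2 in WT alone (2.47%, against 1.39%). For H3K4me3, 2 were called in FAMA-LGK alone (2.47%, against 1.99%) and 3 in WT alone (3.70%, against 2.03%). These shares rest on 1 to 3 genes each. For 7 of the 8 genes, the peak behind the call ranked among the bottom 25% of its list in −log10 q.

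NAC075 (AT4G29230), which acts in the xylem wall network and in flowering, had 1040 bp of H3K4me3 in FAMA-LGK and 0 bp in WT. On chromosome 4 (TAIR10) this peak spanned 14409853 to 14410892, and its fold was 2.82. H3K27me3 covered its whole body in both genotypes, with the longest coverage of any member, 6227 bp in FAMA-LGK against 6441 bp in WT. The H3K4me3 peak lay wholly inside the H3K27me3 domain, near the lower-coordinate end of the gene. Its call ended with 50% of the body required and with the upper 50% of peaks.

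NARS1 (AT3G15510, ANAC056, listed as NAC2), a regulator of seed coat development, had 1357 bp of H3K4me3 in FAMA-LGK and 0 bp in WT. On chromosome 3 it spanned 5243538 to 5244894, at a fold of 2.21 and wholly overlapped by H3K27me3. H3K27me3 covered 1845 bp in FAMA-LGK against 1936 bp in WT. Of the 8 alternatives run, keeping the upper 50% of peaks was the only one that ended this call.

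JUB1 (NAC042, AT2G43000), which delays senescence, had 0 bp of H3K27me3 in FAMA-LGK and 1225 bp in WT. No H3K4me3 was listed there in either genotype. The WT peak spanned 17881544 to 17882768 on chromosome 2, with a fold of 1.64 and the 1.2 percentile of its list by −log10 q. Requiring a −log10 q of 5 or more ended this call, as did keeping the upper 50% of peaks. NAC048 had H3K27me3 over 0 bp in FAMA-LGK against 533 bp in WT, where it lay within the H3K4me3 peak. That H3K4me3 covered 687 bp in FAMA-LGK against 980 bp in WT. NAC093 had 673 bp of H3K27me3 in FAMA-LGK and 0 bp in WT, at a fold of 1.90. The calls of NAC048 and NAC093 each ended with 50% of the body required and with the upper 50% of peaks.

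**Figure D5:**
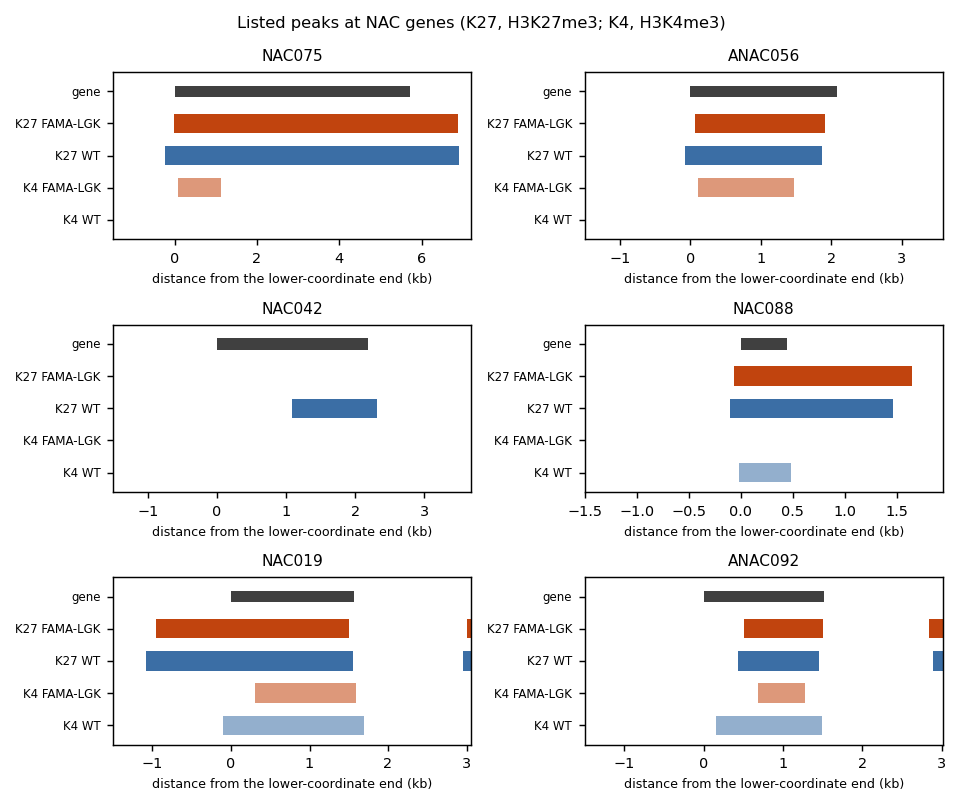
Listed peaks at 6 NAC genes, drawn as distance from the lower-coordinate end of the gene (x axis, kb; strand is not in the annotation used), with the gene on top, H3K27me3 in full colour and H3K4me3 in pale colour, FAMA-LGK rows above WT rows. NAC075 and ANAC056 show an H3K4me3 peak in FAMA-LGK inside H3K27me3 and none in WT; ANAC092 (ORE1) shows a shorter H3K4me3 peak in FAMA-LGK, 594 bp against 1342 bp in WT.

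H3K4me3 calls in WT alone, at 3 members, came from short or shared peaks. NAC067 had 0 bp in FAMA-LGK against 431 bp in WT, at a fold of 1.78 and the 0.7 percentile of the WT list, and its call ended with 50% of the body required and with the upper 50% of peaks. NAC088, a gene of 444 bp, had 0 bp in FAMA-LGK against 501 bp in WT, and that peak lies wholly within the overlapping aquaporin gene SIP1;2. The marks of NAC088 and SIP1;2 cannot be told apart, and the call of NAC088 ended with the upper 50% of peaks. NAC044, which arrests the cell cycle after DNA damage, had 126 bp of its body covered in FAMA-LGK and 341 bp in WT. The peak there lay mostly over its neighbour CDC48C, with 1423 bp of that gene covered in FAMA-LGK and 1276 bp in WT. With at least 1 bp required or 500 bp flanks added, NAC044 was called in both genotypes. With a summit in the gene or 50% of the body required, it was called in neither.

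Covered lengths differed in either direction. For H3K27me3, 18 members had a longer covered length in FAMA-LGK than in WT (22.2%, against 14.1% of all genes) and 23 a shorter one (28.4%, against 15.3%). For H3K4me3, 22 were longer (27.2%, against 39.0%) and 19 shorter (23.5%, against 30.9%). These shares also count genes without the mark, so they move with the share of genes that carry it. The median change over the 81 members was 0 bp for each mark, as over all genes. Members with 0 bp in both genotypes, 36 for H3K27me3 and 40 for H3K4me3, keep this median near 0 bp. Among members called in both genotypes, the median change was 0 bp for H3K27me3 and 6 bp for H3K4me3. Among the 40 members called for H3K27me3 in both genotypes, 19 differed by at most 100 bp (47.5%, against 52.9% of all such genes). For H3K4me3 it was 16 of 28 (57.1%, against 59.3%). The H3K27me3 lengths of NAC007, NAC020, NAC067 and NAC074 filled the gene and both flanks in each genotype. Their change of 0 bp says nothing about peak ends further out.

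The largest difference in H3K27me3 covered length among members called in both genotypes was at NAC099, with 3891 bp in FAMA-LGK against 4566 bp in WT. Whole peaks, counted past the flanks, differed more at some members. The peak at ANAC026 spanned 4010 bp in FAMA-LGK against 11042 bp in WT, and that at NAC025 3426 against 7894 bp. At NAC067 the FAMA-LGK peak was the wider, with 16200 against 10134 bp. In covered length, other differences were smaller. NAC023 had 997 bp in FAMA-LGK against 1426 bp in WT, and NAC028 had 4272 and 4593 bp. Longer in FAMA-LGK were NAC058 (3054 bp, against 2733 bp in WT), NAC071 (1046 bp, against 809 bp), NAC038 (2896 bp, against 2661 bp), NAC010 (3135 bp, against 2902 bp) and NAC057 (2699 bp, against 2482 bp). For H3K4me3, NAC047 was longer in FAMA-LGK by 530 bp, NAC041 by 369 bp and NAC003 by 224 bp. ORE1, NAC019, NAC032 and NAC077 were shorter in FAMA-LGK, with changes of -748, -515, -321 and -298 bp.

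Some members lie side by side, and their marks can differ. There were 9 pairs of members that are adjacent protein-coding genes, with 16 members in them. NAC046 and NAC047, 6103 bp apart, differed, with both marks at NAC046 and H3K4me3 alone at NAC047. NAC048 had H3K4me3 in both genotypes, and NAC049, 997 bp away, had H3K27me3 alone. NAC003 and NAC004 were called for H3K4me3, and NAC005, 937 bp from NAC004, had 0 bp in every list. NAC016 and NAC017 share 1 H3K4me3 peak in each genotype, which reached 63 bp (FAMA-LGK) and 49 bp (WT) into NAC016, a senescence gene, and was called at NAC017 alone. NAC050, NAC052 and NAC053 lie in a row with separate H3K4me3 peaks.

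At 15 members neither mark was called in any list (18.5%, against 16.3% of all genes). Of these, 12 had 0 bp of either mark within 500 bp of the gene in every list. They included VND6 and 3 of the 6 matched targets of the microRNA miR164, NAC1 (ANAC021, of auxin and lateral roots), NAC080 and NAC100. The other matched miR164 targets, CUC1, CUC2 and ORE1, were called for H3K27me3 in both genotypes. NAC085, the partner of NAC044 in DNA damage arrest, was unmarked too. The rest of the 12 were NAC005, NAC036, NAC063, NAC064, NAC065, NAC084 and NAC094. ORS1 (ANAC059, AT3G29035, also listed as NAC3), a relative of ORE1, had 491 bp of H3K4me3 in FAMA-LGK and 0 bp in WT, but only 21 bp of its body were covered. NAC016 and NAC095 had H3K4me3 next to the gene in both genotypes. A gene without a listed peak is not shown to lack the mark.

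A further 19 NAC genes carry another symbol and have a NAC or ANAC number as a synonym. Of these, 10 were called for H3K27me3 in FAMA-LGK (52.6%) and 12 in WT (63.2%), against 24.4% of all genes in each list. For H3K4me3 it was 9 in each (47.4%), against 62.2%. VND1, VND7, NST1 and XND1 of the xylem network were called for H3K27me3 alone, as were the root cap genes FEZ and SMB. CUC1, CUC2 and CUC3, which set organ boundaries, had H3K27me3 over 867, 3151 and 1573 bp in FAMA-LGK and 1781, 3151 and 2254 bp in WT. CUC2 also had H3K4me3 over 0 bp in FAMA-LGK against 668 bp in WT. The stress genes ATAF1, ATAF2 and RD26 and the DNA damage regulator SOG1 had H3K4me3 alone in both genotypes.

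Calls differed at 3 of these 19 genes (15.8%, against 6.44% of all genes). NAM, which acts in seed coats with NARS1, had H3K27me3 over 0 bp in FAMA-LGK against 1133 bp in WT, and H3K4me3 over 1468 and 1452 bp. NAP, an activator of senescence, had H3K27me3 over 0 bp in FAMA-LGK against 867 bp in WT, and H3K4me3 over 851 bp in FAMA-LGK against 0 bp in WT. The third was CUC2. The peaks behind these calls ranked low in their lists by −log10 q. The WT H3K27me3 peaks of NAM and NAP were at the 12.5 and 7.1 percentiles. The H3K4me3 peaks of NAP in FAMA-LGK and of CUC2 in WT were at the 7.6 and 5.5 percentiles. Of the 12 listed senescence NAC genes, with both kinds of symbol, 4 were called for H3K27me3 in FAMA-LGK and 6 in WT. Of all genes, 24.4% were called in each list. JUB1 and NAP made the difference. H3K4me3 was called at 8 in FAMA-LGK and 7 in WT, near the 62.2% of all genes in each list.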

How the data were processed

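Sorted guard cells were profiled by ChIP-seq, and the authors deposited 1 peak list for each mark and genotype. Per the submitters' processing notes, the build was TAIR10 and the tools were CASAVA 1.8.2, Bowtie2 and MACS2, with no role or setting stated. How replicates were combined, and at which threshold, is not given in the sources used here. The authors' deposited fold is a ratio of ChIP over control at a peak, and the deposited lists also hold −log10 q values and a score, which was not used. These values describe or rank peaks within 1 list.

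Overlaps were computed with Python 3.11.15, NumPy 2.4.6 and pandas 2.3.3 after touching peaks of a list were merged, and the overlap code was checked on simulated peaks. Gene bodies came from a RefSeq table of TAIR10.1, which holds no strand or exons. In it, 95.4 to 97.0% of WT H3K4me3 summits lay in protein-coding genes per chromosome, and shifting the table by 100 bp steps, to 3000 bp at most, never raised that share. Printed coordinates belong to the deposited peaks and count from 1. The symbols NAC2 and NAC3 are each carried by 2 members, which are named by their ANAC number. Members and role lists were chosen with earlier results of these data known. Genes were named if their call differed, if they were among the 6 largest gains or losses or the 5 longest of a mark, if they carried both marks, or by role list. Other members are given by value or range. Alternatives were at least 1 bp or 50% of the body covered, 500 bp flanks, −log10 q of at least 5, the 50% of peaks highest in −log10 q, equal numbers of peaks, a summit in the gene, gaps of 500 bp merged, synonyms as symbols, and lengths over the body alone.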

Additional observations from a re-analysis of the deposited data

How the results depend on the processing

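The H3K27me3 share of NAC genes stayed above that of all genes, and the H3K4me3 share below it, in both genotypes under the 8 alternatives that keep the 81 members. The main counts were 30 (FAMA-LGK) and 31 (WT) members for H3K4me3, 7 and 8 with both marks and 15 with neither. With 50% of the gene body required, H3K4me3 was called at 17 and 15, both marks at 3 and 4 and neither at 25, with 5 H3K4me3 calls in FAMA-LGK alone and 1 H3K27me3 call in WT alone. With the upper 50% of peaks by −log10 q, H3K4me3 was called at 12 and 12, both marks at 0 and 1 and neither at 33. With 500 bp flanks, both marks were called at 11 and 13. At least 1 bp covered gave 4 H3K4me3 calls in FAMA-LGK alone, a −log10 q of at least 5 gave 1 H3K27me3 call in WT alone, a summit in the gene gave 3 H3K27me3 calls in FAMA-LGK alone, and synonyms gave 4 H3K27me3 calls in WT alone. The median change in length was 0 bp for both marks in each alternative run. Members without the mark in either genotype keep this median near 0 bp, so it cannot show whether lengths were stable. Of 64 checks of the 8 genes with differing calls, 48 kept the difference and none reversed it. At all of them but NAC044, the genotype without the call had 0 bp of the mark, also within 500 bp of the gene. The alternatives could therefore end those calls but not reverse them. The causes were not tested. Depth is unknown, so a call in 1 genotype alone can rest on the threshold. No paired analysis was possible because replicates are not separate in the lists.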

Other observations

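Listed genes of secondary walls and of senescence carried the marks in mixed states. Of 15 matched secondary wall genes, both genotypes had H3K27me3 calls at 5, and 6 had neither mark in any list, where 23.1% and 16.3% of all genes did. MYB46 and MYB83, the MYB switches directly below the VND and NST factors, had H3K27me3 over 2959 and 2833 bp in FAMA-LGK and 3082 and 2833 bp in WT, and no H3K4me3. H3K4me3 was called in FAMA-LGK alone at IRX9, of xylan synthesis (675 bp in FAMA-LGK against 0 bp in WT), and at the laccase gene LAC4 (544 and 0 bp), and in WT alone at FLA12 (0 bp in FAMA-LGK against 584 bp in WT). The cellulose synthase gene CESA4 had H3K4me3 over 2297 bp in FAMA-LGK against 2274 bp in WT.

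Of 16 listed genes linked to senescence, 7 were called for H3K27me3 in FAMA-LGK and 6 in WT, where 24.4% of all genes were in each list. SAG12, the common marker of leaf senescence, had 1946 bp in FAMA-LGK against 1548 bp in WT. The difference was BFN1, a nuclease gene of senescence and cell death, with 1160 bp in FAMA-LGK against 0 bp in WT. H3K4me3 was called at 9 in FAMA-LGK and 10 in WT, near the 62.2% of all genes in each list, among them the chlorophyll breakdown genes NYE1 (1937 and 1872 bp) and PPH (1223 and 1203 bp). ABI5, an ABA response factor, had 0 bp in FAMA-LGK against 397 bp in WT.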
